A study of Caenorhabditis elegans with 6 samples.

Results

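The genes described here are the 71 protein-coding genes of Caenorhabditis elegans whose symbol begins with mrpl or mrps, out of 20189 genes counted. They encode proteins of the mitochondrial ribosome, 42 of them named for its large subunit (mrpl) and 29 for its small subunit (mrps). RNA, depleted of ribosomal RNA with RNase H in all 6 samples, was sequenced from whole L4 hermaphrodites, the last larval stage, that were heterozygous for rpl-36A(P55Q) over mIn1 and raised at 23 °C. The allele changes a protein of the cytosolic large ribosomal subunit, mIn1 is a balancer of chromosome II, and both groups carried both, so there was no comparison with another genotype. The no CHX group (3 samples) was collected after 2 days on plates without cycloheximide (CHX). The CHX group (3 samples) was collected after 3 days on plates with 500 µg/ml of it. Drug and age therefore changed together and cannot be told apart. Whether replicates grew as separate cultures is not stated. The tests below set each difference against variation among these samples that may be technical alone.

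Mitochondria keep a ribosome of bacterial descent that translates the few proteins encoded in mitochondrial DNA, nearly all of them subunits of the respiratory chain and the ATP synthase. All of its proteins are encoded in the nucleus, made by cytosolic ribosomes and imported. Cycloheximide blocks elongation on cytosolic ribosomes and does not act on mitochondrial ones. How far it blocked translation in these animals, which carry an altered cytosolic ribosomal protein, was not measured. Some members have counterparts in the bacterial ribosome and others were added in mitochondria. In worms, knockdown of members such as mrps-5 is known to lengthen life and to induce the mitochondrial unfolded protein response. Subunits are given here by symbol, although the mammalian proteins of the same name as mrps-30 and mrps-18A sit in the large subunit.

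The libraries were shallow, with 313767 to 414781 counts in coding sequence. All members together had between 1232 and 1430 counts in a sample, and the median tested member stood at 52.5 CPM beside 80.8 for all tested genes. CPM is a gene's count per 1000000 counts in tested genes, after TMM scaling of the libraries, and 3 counts corresponded to between 7.22 and 10.6 CPM. Every member had a count in at least 1 sample, 67 had one in all 6, and 51 passed the filter on low counts and were tested. The cytosolic gene rpl-36.A itself stood at 184, 263 and 209 CPM without CHX and at 225, 210 and 149 CPM with it (log2 fold change -0.17, SE 0.23). Markers of muscle, intestine, epidermis, neurons, germline, oocytes and sperm all had counts. Of these lists, 9 of 9 tested muscle genes were lower with CHX (summed level 11496 to 16171 CPM without it and 8349 to 8857 with it), as were 4 of 6 intestinal genes, with 1 higher. All 9 oocyte and eggshell genes were higher (3020 to 4044 and 9978 to 10951 CPM). Of 6 epidermal genes 3 were lower, of 5 sperm genes 5 were lower, of 10 germline genes 4 were higher and 1 was lower, and of 2 neuronal genes 0 passed. Over all tested genes 14.9% were lower and 10.3% higher. The number of muscle genes lower was 5 with library totals, with DESeq2 or without CHX replicate 3. That of sperm genes lower was 3 with library totals, with a replicate block or without no CHX replicate 2, and that of germline genes higher was 7 with library totals. The part of tissue composition in the results below was not tested, and in whole animals fewer cells of a type and less RNA per cell cannot be told apart.

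Members differed widely in level, although their proteins are built into one particle. Per kilobase (kb) of coding length, the mean over all samples ran from 6.31 CPM per kb for mrps-21 to 389 CPM per kb for mrpl-12, with a median of 62.3. The medians were 64.4 for large subunit members and 60.4 for small subunit members. Highest was mrpl-12, the counterpart of the bacterial L7/L12 protein of the stalk that recruits translation factors. Its level was 462 ± 157 CPM per kb without CHX and 316 ± 72.6 with it (SD, n = 3). Close to it stood mrps-11, of the platform of the small subunit, at 456 ± 129 and 289 ± 22.02 CPM per kb. These leaders did not differ from each other beyond their spread, and both stood above mrps-12, next in order, in either group.

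The gene mrps-12, for the counterpart of the bacterial decoding-centre protein S12, had 246 ± 5.29 CPM per kb without CHX and 126 ± 33.7 with it. Next came mrps-10 with 187 ± 16.3 and 178 ± 15.6 CPM per kb. The large subunit genes mrpl-4, whose bacterial counterpart lines the exit tunnel, and mrpl-50, a mitochondrial addition, had 193 ± 17.7 and 191 ± 52.8 CPM per kb without CHX. The levels of mrps-10, mrpl-4 and mrpl-50 lay within each other's spread there, so their order is not resolved. The 10 members with the highest CPM held 35.9% of the summed level of all 71.

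**Figure D1:**
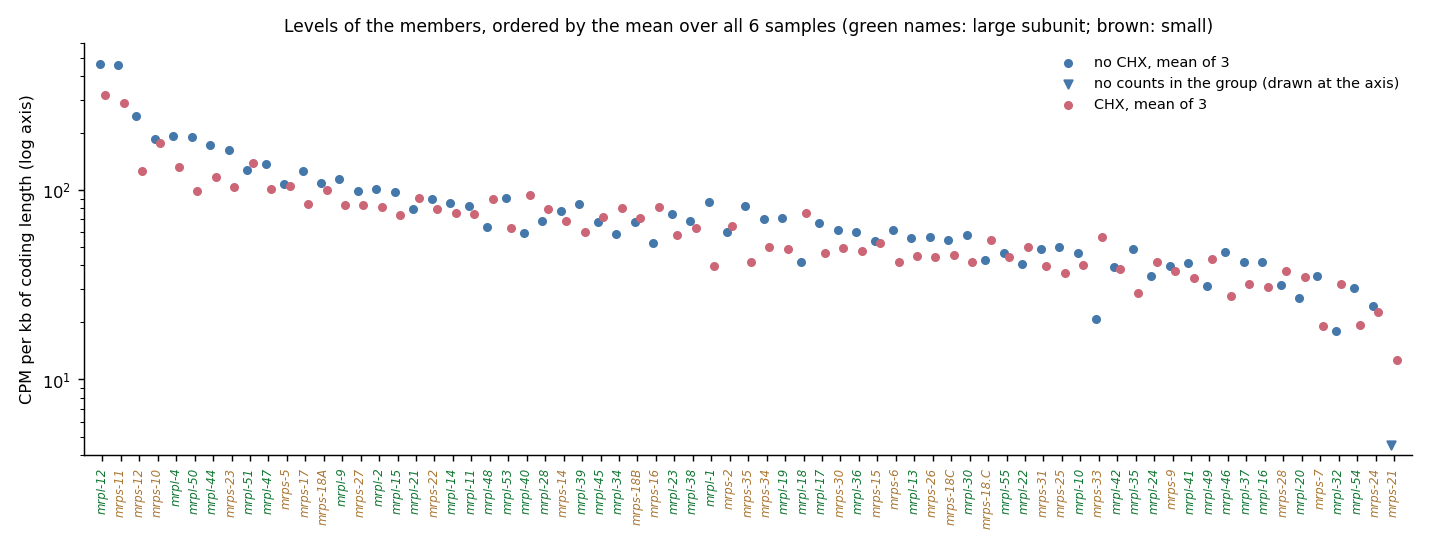
Mean level of each of the 71 members in CPM per kb of coding length, on a log axis, without CHX (blue) and with CHX (red), 3 samples each. Members are ordered by the mean over all 6 samples, from mrpl-12 at 389 to mrps-21 at 6.31 CPM per kb, and the triangle marks a group with 0 counts.

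Taken as one pool, transcripts of the mitochondrial ribosome were lower in every CHX sample than in any sample without CHX. The summed level was 4409, 4245 and 4355 CPM in the samples without CHX. It was 3554, 3572 and 3440 CPM in those with CHX. The groups do not overlap, and the means of 4336 ± 83.9 and 3522 ± 71.6 CPM (SD, n = 3) are in a ratio of 0.812. With each library's raw total as the denominator the ratio was 0.907. The members then held 0.386% ± 0.00583 and 0.350% ± 0.00456 of all counts.

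Both subunits were lower in every CHX sample than in any sample without CHX, with ratios of 0.814 for the large and 0.809 for the small. Large subunit transcripts summed to 2484 ± 115 and 2022 ± 63.8 CPM, and small subunit transcripts to 1852 ± 37.2 and 1500 ± 47.3 CPM. The ratio of large to small lay between 1.26 and 1.44 in all 6 samples, with means of 1.34 ± 0.0873 without CHX and 1.35 ± 0.0652 with it. Transcripts of cytosolic ribosomal proteins, the 78 genes named rpl or rps, summed to 100487 ± 576 CPM without CHX and 79340 ± 1409 with it. Their ratio to the mitochondrial pool was 22.6, 23.8 and 23.1 without CHX, and 22.7, 21.8 and 23.0 with CHX. These ratios overlap between the groups, with means of 23.2 ± 0.567 and 22.5 ± 0.608 (SD, n = 3).

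**Figure D2:**
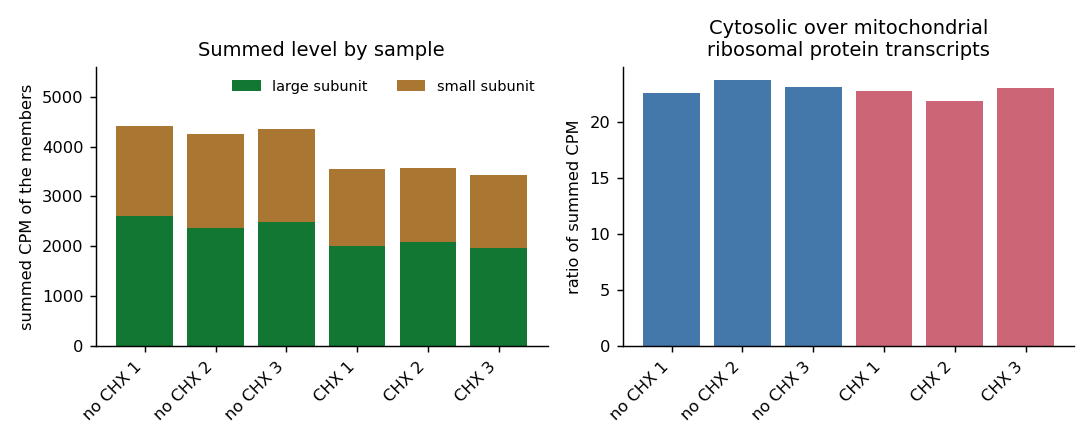
Left, summed CPM of the 42 large (green) and 29 small (brown) subunit members in each sample. Right, summed CPM of cytosolic ribosomal protein genes over that of the members. The left bars run from 4245 to 4409 without CHX and from 3440 to 3572 with it, while the right bars lie between 21.8 and 23.8 in all samples.

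Gene by gene, 5 of the 51 tested members were lower with CHX and 0 were higher (edgeR's quasi-likelihood test, Benjamini-Hochberg adjustment over all 5641 tested genes, adjusted p under 0.05). That is 9.80% of tested members lower, beside 25.2% of all tested genes called, 14.9% lower and 10.3% higher. The share lower was below that of all genes, a difference that was not tested. Members also had larger standard errors of the log2 fold change (median 0.41, beside 0.34 for all tested genes). At an unadjusted p under 0.05, 8 members were lower and 0 higher. Limma-voom called 5 lower and 0 higher, and 1376 of all 5641 genes (840 lower, 536 higher). DESeq2 was run without the low-count filter, on all 71 members and 13894 genes. It called 0 members in either direction and 6.53% of these genes (4.02% lower, 2.50% higher). On the 5641 genes of the default filter, a choice made after seeing the data, DESeq2 called 2 members lower and 0 higher. There it called 1079 of all genes (665 lower, 414 higher). With library totals in place of TMM factors 2 members were lower, and of all genes 25.8% were called (10.7% lower, 15.1% higher). Calls over all genes thus went from 840 lower and 579 higher to 605 and 851. Without CHX replicate 3 the count of members was 0, where 16.2% of all genes were called (9.90% lower, 6.31% higher). Without no CHX replicate 1 it was 1 of 57 tested, where 1250 of 6195 genes were called (706 lower). Without CHX replicate 2 it was 1 of 55, beside 1076 of 6062 genes called (655 lower). Without no CHX replicate 3 it was 3 of 56, beside 1331 of 6184 genes (804 lower). Without CHX replicate 1 it was 3 of 52, beside 1166 of 6079 genes (708 lower).

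The direction was more uniform than the calls. Of the 51 tested members, 39 had a log2 fold change below 0, or 76.5% beside 49.2% of all tested genes. The median was -0.30, beside 0.02 over all tested genes. The distance between these medians was -0.32, and it was -0.33 with library totals, which moved the median of all genes to 0.18 and that of members to -0.15. Without a filter on low counts, all 71 members had a median of -0.20. By subunit, 21 of 31 large and 18 of 20 small subunit members lay below 0, with medians of -0.32 and -0.25, and 2 and 3 of them passed the test.

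**Figure D3:**
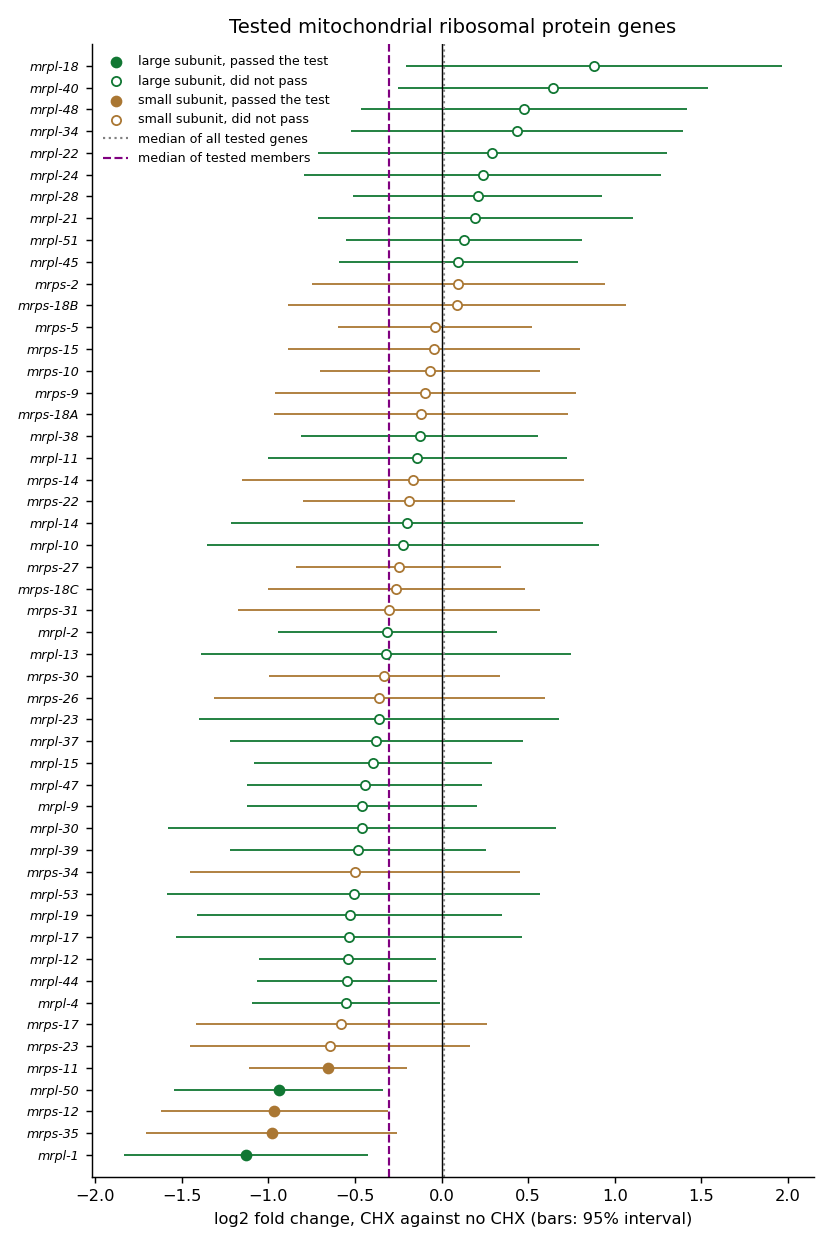
Log2 fold change, CHX against no CHX, of the 51 tested members with 95% intervals. Filled points mark the 5 that passed the test, all lower, and the dashed and dotted lines mark the medians of tested members (-0.30) and of all tested genes (0.02).

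The lowest log2 fold change among members was that of mrpl-1 (WBGene00017997, chromosome IV, 7707575 to 7709084 in WBcel235, minus strand, 4 exons), for the counterpart of bacterial L1, the protein of the mobile stalk beside the tRNA exit site. It had 102, 104 and 88.4 CPM without CHX and 39.2, 51.8 and 43.3 CPM with it, from 25 to 34 and from 15 to 20 counts. Every CHX sample lay far below every sample without CHX. The fitted fall was 2.18-fold (log2 fold change -1.13, SE 0.34, adjusted p 0.0160). It passed in 12 of 15 alternatives. DESeq2 gave an adjusted p of 0.0840. Leaving out CHX replicate 1 gave 0.0643 and leaving out CHX replicate 3 gave 0.0601. The gene overlaps emc-6 on the same strand, shares no coding base with it, and emc-6 had only 4 counts without CHX and 10 with it.

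A 1.92-fold fall was fitted for mrpl-50 (WBGene00011883, chromosome II, 8929841 to 8930937, plus strand, 3 exons), a large subunit gene with no bacterial counterpart. Its values were 207, 116 and 166 CPM without CHX, and 112, 69.98 and 72.2 with it. The groups nearly meet, at no CHX replicate 2 and CHX replicate 1 (log2 fold change -0.94, SE 0.30, adjusted p 0.0192). DESeq2 gave an adjusted p of 0.0853. It was 0.102 when no CHX replicate 1 was left out, 0.0830 for CHX replicate 2 and 0.100 for CHX replicate 3.

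In the small subunit, mrps-12 (WBGene00011391, chromosome V, 20838080 to 20838768, plus strand, 4 exons) had 118, 116 and 113 CPM without CHX. It had 75.7, 44.1 and 57.7 CPM with it, so the samples without CHX lay close together and well above the others. The log2 fold change was -0.97 (SE 0.32, adjusted p 0.0265). The gene mrps-35, for a mitochondrial addition (WBGene00012697, chromosome V, 18981306 to 18985870, plus strand, 4 exons), had 88.5, 94.9 and 88.4 CPM without CHX and 57.5, 46.7 and 33.7 with it. Here too the groups were well apart (log2 fold change -0.98, SE 0.36, adjusted p 0.0419). The call of mrps-12 was lost without no CHX replicate 1 (adjusted p 0.0502), no CHX replicate 2 (0.0530), CHX replicate 2 (0.140) or CHX replicate 3 (0.0884). That of mrps-35 was lost when any sample other than CHX replicate 1 was left out (adjusted p 0.0633 to 0.183) and with a replicate block (0.0561).

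The best counted of the called members, mrps-11 (WBGene00012244, chromosome V, 12493239 to 12494622, minus strand, 2 exons), had 64 to 108 counts in a sample. Its values were 354, 196 and 304 CPM without CHX, and 196, 171 and 173 with it. The CHX samples lay together, while no CHX replicate 2 stood below its group and met CHX replicate 1 at 196 CPM. The fitted fall was 1.58-fold (log2 fold change -0.66, SE 0.22, adjusted p 0.0301). Leaving out no CHX replicate 2 gave an adjusted p of 0.00285, and leaving out any other sample gave 0.0539 to 0.164. Library totals ended the calls of mrps-11 (0.0927), mrps-12 (0.0620) and mrps-35 (0.0851). Partners that overlap mrps-11 and mrps-35 on the other strand, inx-11 and sws-1, had at most 6 counts in a group and shared no coding base with them.

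**Figure D4:**
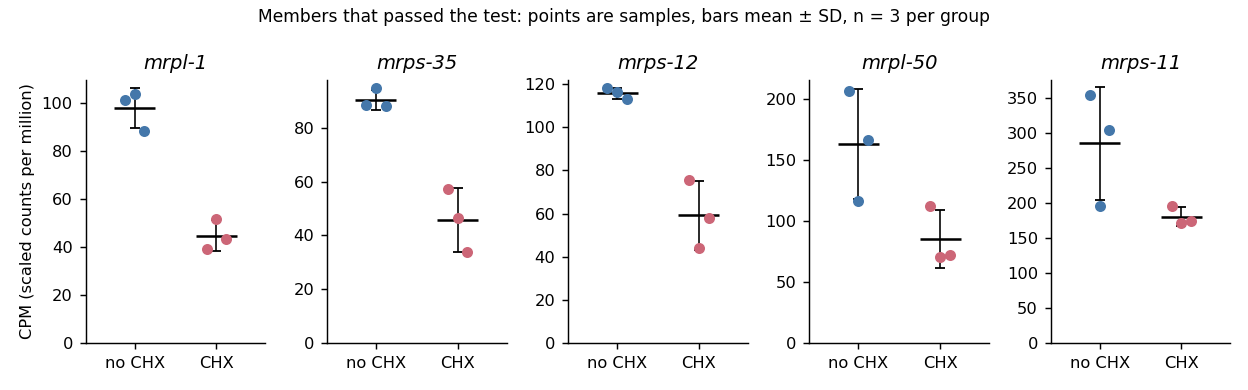
CPM in each sample for the 5 members that passed the test. Points are samples, horizontal bars means and error bars SD (n = 3 per group). All CHX samples lie below all samples without CHX in each panel, with a contact at 196 CPM for mrps-11.

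Among the other well counted members, mrpl-12 and mrpl-44 lay lower on average without passing the test. For mrpl-12 the values were 315, 153 and 251 CPM without CHX and 131, 205 and 156 with it. The groups overlap, and no CHX replicate 2 was again the lowest of its group (log2 fold change -0.54, SE 0.25, adjusted p 0.111). For mrpl-44, whose product has a fold related to ribonuclease III, the values were 249, 135 and 226 CPM, and 167, 124 and 125 (log2 fold change -0.55, SE 0.25, adjusted p 0.117). This gene shares 164 coding bases with F02A9.10, which was lower with CHX (log2 fold change -0.63, SE 0.23, adjusted p 0.0389), so reads of the shared stretch may be counted for either. Without no CHX replicate 2 both passed, with adjusted p 0.0146 for mrpl-12 and 0.0213 for mrpl-44.

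Some abundant members had nearly equal means in the groups. The gene mrps-5, for the counterpart of bacterial S5, had 157, 144 and 120 CPM without CHX and 102, 189 and 120 with it. Its CHX samples surround the others (log2 fold change -0.04, 95% interval -0.60 to 0.52), and the sign changed under 5 alternatives. For mrps-10, a counterpart of bacterial S10, the values were 78.7, 91.9 and 91.9 CPM, and 86.2, 75.2 and 89 (log2 fold change -0.07, 95% interval -0.70 to 0.57). The groups overlap almost fully, and the sign of mrps-10 changed with library totals. For both genes the interval excludes a 2-fold change in either direction, as it did for 14 of the 51 tested members. A 2-fold rise was excluded for 43 members and a 2-fold fall for 22.

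Samples of the groups did not overlap for 12 tested members, 11 with CHX below and 1 with CHX above, that is mrpl-18. Among all tested genes this held for 20.2% and 19.5%. Besides the 5 called, CHX was below in mrpl-4 (adjusted p 0.131), mrps-23 (0.245), mrpl-9 (0.319), mrpl-17 (0.455), mrpl-2 (0.491) and mrps-18C (0.636). For mrpl-4 the values were 177, 156 and 187 CPM without CHX and 81.0, 153 and 120 with it. For mrpl-2, whose bacterial counterpart lies near the peptidyl transferase centre, they were 98.3, 98.0 and 95.4 CPM, and 73.1, 69.98 and 91.4. For mrps-23 they were 72.1, 49 and 74.2 CPM, and 41.8, 44.1 and 38.5, so the lowest sample without CHX lay close to the CHX group.

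Of the 12 tested members with a log2 fold change above 0, the 3 highest were thinly counted. Their samples without CHX alone would not have passed the filter on low counts, so they were tested because of the group where they are high. The highest log2 fold change was that of mrpl-18, for the counterpart of bacterial L18, at 0.88 (SE 0.53, adjusted p 0.234). It had 5, 5 and 9 counts without CHX and 16, 13 and 17 with it, so its groups did not overlap. Neither its rank nor this lack of overlap is independent of the filter. Next were mrpl-40 (log2 fold change 0.65, SE 0.44) and mrpl-48 (0.47, SE 0.46), both mitochondrial additions. In mrpl-48 the mean with CHX rested on CHX replicate 1, at 78.3 CPM beside 36.3 and 36.1 in the others. The lowest tested member per kb was mrpl-37, at 41.5 ± 5.36 and 31.9 ± 5.08 CPM per kb (log2 fold change -0.38, SE 0.41).

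The remaining 20 members had too few counts to test, between 5 and 64 in all 6 samples together. By summed counts divided by the TMM-scaled library sizes, 12 were lower and 8 higher with CHX. The exact 95% counting interval of the ratio, which covers counting error only, excluded 1 for 2 of them. One was mrps-33, with 2, 1 and 4 counts without CHX and 12, 8 and 5 with it (ratio 2.76, interval 1.16 to 7.55). The other was mrpl-46, with 14, 17 and 4 counts and then 6, 9 and 11 (ratio 0.574, interval 0.332 to 0.980). In CPM the groups overlap for both genes.

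The rarest was mrps-21, with 0 counts without CHX, which allows up to 3, and 3, 1 and 1 counts with it. For mrps-16, mrpl-49, mrpl-32, mrps-28, mrpl-20 and mrps-18.C the unscaled summed counts were 21 and 43, 16 and 29, 9 and 21, 15 and 23, 14 and 23, and 17 and 27. The intervals of their scaled ratios all include 1. The other untested members, with ratios from 0.551 to 0.965 and intervals that include 1, were mrps-7, mrpl-35, mrpl-54, mrps-6, mrpl-16, mrps-25, mrpl-36, mrpl-41, mrps-24, mrpl-42 and mrpl-55. The genes mrps-18C and mrps-18.C are different loci, on chromosomes III and II.

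Members were classed as having a bacterial counterpart or as added in mitochondria by the numbering of the human proteins of the same name. That numbering may put single members in the wrong class, so the counts by class are approximate. In both classes most fitted values lay below 0. Of 32 tested members classed as having a counterpart, 3 were lower and 24 had a log2 fold change below 0 (median -0.21). Of 19 tested members classed as without one, 2 were lower and 15 lay below 0 (median -0.36). The difference between these classes was not tested. Among the 10 members highest per kb, 9 lay below 0 and the median was -0.55, beside -0.22 for the 41 other tested members. This contrast was not tested either. The samples without CHX varied widely in the summed level of these 10, from 1234 to 1728 CPM, beside 1003 to 1034 with CHX.

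Genes that work with the mitochondrial ribosome were read in the same fit, where 14.9% of all tested genes were lower and 10.3% higher. No list was tested as a set, so a count of calls near these shares says nothing particular about a list. The 4 tested translation factors all lay below 0 (median -0.49, or -0.33 without CHX replicate 2), and 0 passed. They include tufm-1, for elongation factor Tu, at 382 ± 21.8 and 272 ± 46.4 CPM (adjusted p 0.0539), and gfm-1, for elongation factor G, at 252 ± 3.30 and 168 ± 40.03 CPM (adjusted p 0.0530). Both groups of gfm-1 are apart, with a highest CHX value of 196 CPM. At an unadjusted p under 0.05 these 2 factors were lower. Limma-voom called 2 of the 4 and DESeq2 0.

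Of 7 tested mitochondrial aminoacyl-tRNA synthetase genes 1 was lower, beside 14.9% of all tested genes. This was iars-2, which charges the isoleucine tRNA, with 377, 181 and 290 CPM without CHX and 136, 148 and 159 with it (log2 fold change -0.93, SE 0.24, adjusted p 0.00451). Without no CHX replicate 1 the list held 0 lower and 1 higher. Its median of 0.15 rested on single samples, at -0.12 without CHX replicate 2, -0.085 without no CHX replicate 3, 0.044 without no CHX replicate 1 and 0.26 without CHX replicate 1, and it was 0.31 with library totals. Of 4 tested genes for maintenance and transcription of mitochondrial DNA 0 passed (edgeR, DESeq2 and limma-voom; 0 at an unadjusted p under 0.05), and the most abundant, mma-1, had 220 ± 57.0 and 233 ± 12.6 CPM.

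The templates of the mitochondrial ribosome, messenger RNAs of the mitochondrial genome, were also lower in part. Of 9 tested, 4 were lower and 0 higher (median -0.41, or -0.26 with library totals), beside 14.9% and 10.3% of all tested genes. Cytochrome b, ctb-1, fell from 890 ± 66.9 to 592 ± 44.99 CPM (log2 fold change -0.59, SE 0.15, adjusted p 0.00331), and nduo-2 and ctc-1 passed as well (adjusted p 0.0184 and 0.0378). The number lower was 1 with library totals, with DESeq2, without no CHX replicate 2 or without CHX replicate 3, 2 with a replicate block, without a low-count filter or without no CHX replicate 3, CHX replicate 1 or CHX replicate 2, and 7 without no CHX replicate 1.

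Nuclear genes of oxidative phosphorylation, whose complexes join the products of both ribosomes, had 12 of 39 lower and 0 higher (median -0.52). Of all tested genes 14.9% were lower and 10.3% higher. The complex I gene gas-1 fell from 389 ± 54.6 to 145 ± 15.5 CPM (log2 fold change -1.42, SE 0.20, adjusted p 5.25e-06). The ATP synthase genes atp-2 and asb-2 fell with log2 fold changes of -0.69 (SE 0.10) and -1.05 (SE 0.19). Of 74 tested cytosolic ribosomal protein genes 23 were lower (median -0.27), and the smallest p was that of rpl-4 (log2 fold change -0.60, SE 0.10). That count was 10 with library totals, where the median was -0.11, 15 without a low-count filter, 12 without CHX replicate 2 and 13 without CHX replicate 3.

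The mitochondrial unfolded protein response list had 2 of 11 lower and 0 higher (median -0.42), beside 14.9% and 10.3% of all tested genes. The chaperonin gene hsp-60, a standard reporter of that response, fell from 2831 ± 209 to 1674 ± 57.6 CPM (log2 fold change -0.76, SE 0.11, adjusted p 7.90e-06). Another standard reporter, hsp-6, had 1028 ± 85.7 and 899 ± 90.4 CPM (adjusted p 0.324). The protease gene spg-7 was also lower (adjusted p 0.0239), and atfs-1, for the transcription factor of the response, had 94.6 ± 22.3 and 138 ± 16.7 CPM (adjusted p 0.163). The median was -0.25 without no CHX replicate 1 or CHX replicate 1, -0.27 without CHX replicate 3 and -0.26 with library totals. The count was 1 with library totals, with DESeq2, without a low-count filter, or without no CHX replicate 3, CHX replicate 1 or CHX replicate 2. Of 9 tested import genes 1 was lower, timm-17B.1 (log2 fold change -0.79, SE 0.23, adjusted p 0.0108), a call lost with DESeq2 and without no CHX replicate 1 or CHX replicate 3. The median of -0.28 was -0.12 with library totals, -0.17 without a low-count filter and -0.49 without no CHX replicate 1.

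**Figure D5:**
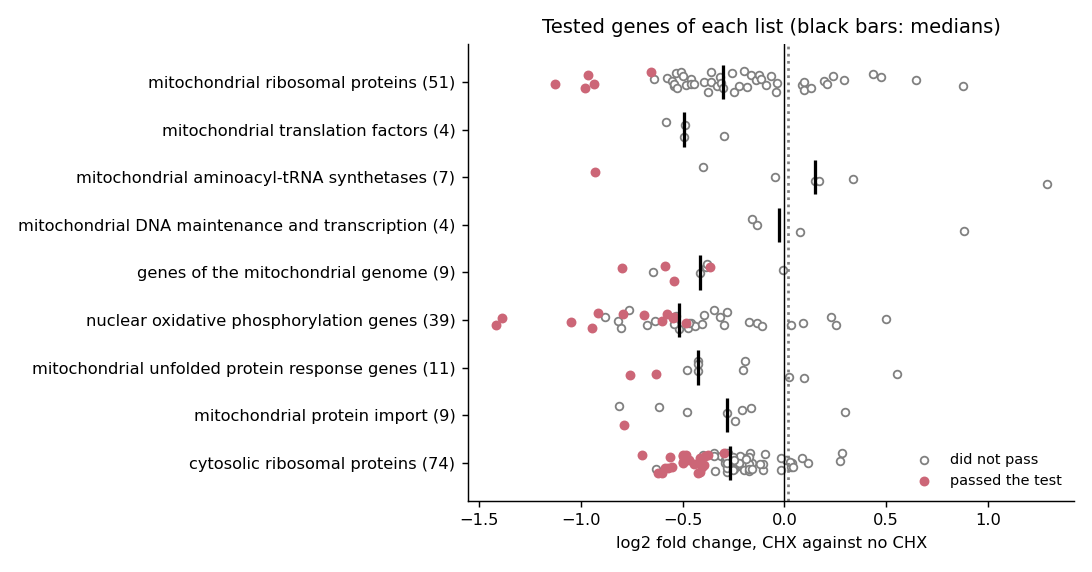
Log2 fold change of each tested gene in the mitochondrial ribosomal protein set and in 8 related lists, with the number tested in brackets. Filled points passed the test, black bars are medians, and the dotted line is the median of all tested genes (0.02). The median of the mitochondrial ribosomal proteins (-0.30) lies between those of cytosolic ribosomal proteins (-0.27) and nuclear oxidative phosphorylation genes (-0.52).

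None of the members lies on the X chromosome. It held 0 of the 71, beside 13.8% of all genes counted and 9.15% of tested genes. Chromosome III held 22 members (30.99%, beside 13.3% of all genes), chromosome I 15, II 13, IV 11 and V 10. Many lie directly behind another gene, a spacing typical of worm operons, in which genes are transcribed together. For 27 members (38.03%) a same-strand gene ended at most 500 bases upstream, beside 17.9% of all genes and 22.1% of tested genes. In 18 of these 27 pairs the gap was 90 to 120 bases.

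Fitted values of such neighbours were not always alike, but differences between neighbours were not tested. The only members in tandem were mrps-2 and mrpl-4, 105 bases apart on chromosome V. For mrps-2 the log2 fold change was 0.10 (SE 0.41, adjusted p 0.885), and for mrpl-4 it was -0.55 (SE 0.27, adjusted p 0.131). Neither passed, and with these standard errors the pair is not resolved as unlike. The called member mrps-11 lies 105 bases behind W04D2.4, which was higher with CHX (log2 fold change 1.27, SE 0.47, adjusted p 0.0465). At 25.9 CPM without CHX, W04D2.4 would not have passed the filter on low counts by that group alone. It was tested because of the group where it is high, so its call is not independent of the filter. The called member mrpl-50 lies 25 bases behind the chaperonin gene cct-2 (log2 fold change -0.19, SE 0.20). Of 21 tested upstream neighbours 1 was lower and 2 were higher, beside 14.9% and 10.3% of all tested genes. The other higher neighbour, W04B5.5 upstream of mrpl-30, had 18.5 CPM without CHX. It too was tested because of the group where it is high.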

How the data were processed

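RNA of 6 whole-animal samples was sequenced. The deposited table holds raw counts of reads for 1 transcript of each gene, in its coding part, on WBcel235 per the file headers. DESeq2 stands in the submitters' processing notes. The sources used here do not give aligner, counting program or use of strand, so reads of overlapping genes cannot be told apart. Groups came from the sample titles. Counts were tested in R 4.3.3 with edgeR 4.0.16 (filterByExpr with minimum count 10 and minimum total 15, TMM, robust quasi-likelihood F-test, Benjamini-Hochberg adjustment, threshold 0.05), which kept 5641 genes with 94.1% of counts. Standard errors are the absolute log2 fold change over the square root of F. The common biological coefficient of variation was 19.0%. Alternatives used DESeq2 1.42.0 and limma 3.58.1. In counts simulated at these depths over 5384 genes, a planted 1.5-fold change was found for 8.06% of genes, a 2-fold one for 54.1% and a 4-fold one for 91.4%. Only 62, 61 and 58 genes carried these changes, whereas 25.2% of tested genes were called in the data. The adjustment was therefore stricter in the simulation. Its rates describe neither the power of the fit to the data nor that for members, which had lower counts. Ensembl's annotation of that build gave coding lengths and gene positions; 9 members took the length of their coding sequence name. Figures were drawn with matplotlib 3.10.9. Members, lists and tests were chosen with earlier results of these data known, and the split by bacterial counterpart was made after values were seen. Genes named are the called members, the 3 highest per kb of each subunit, the 3 largest fitted rises and falls, the lowest tested, those whose groups do not overlap, those whose call changes, all untested members, mrps-5, mrpl-12, mrps-12, and the called or most abundant genes of each list; gfm-1, hsp-6, atfs-1 and neighbouring genes were added after values were seen.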

Additional observations from a re-analysis of the deposited data

How the results depend on the processing

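Over all tested genes, the 1419 calls became 984 to 1331 when 1 sample was left out (601 to 804 lower, 383 to 544 higher). They became 907 with DESeq2 without a low-count filter, over 13894 genes (559 lower, 348 higher). DESeq2 on the 5641 genes of the default filter called 1079 (665 lower, 414 higher). The count of members lower, 5, was 2 with library totals, 2 without a low-count filter, 0 with DESeq2 and 2 with DESeq2 on the genes of the default filter, an alternative chosen after seeing the data. It was 0 to 5 when 1 sample was left out. Of all genes, 1348 of 13894 were called without a low-count filter (737 lower). The count of members higher was 0 in each alternative. Large subunit calls, 2, were 0 with DESeq2 and 0 to 4 with 1 sample left out. Small subunit calls, 3, were 0 with library totals, either use of DESeq2 or no low-count filter, and 0 to 2 with 1 sample left out. The median of tested members was -0.15 with library totals, -0.23 with DESeq2, -0.20 without a filter and -0.31 to -0.21 with 1 sample left out. The ratio of summed levels was 0.907 on raw totals. Without length, 6 of the 10 highest members stayed among the 10 highest. The cause of these changes was not tested. The log2 fold change of mrps-10 turned positive with library totals (0.089) and without CHX replicate 2 (0.017), over a range of -0.14 to 0.017 with 1 sample left out. That of mrps-5 turned positive with library totals (0.12), without a filter (0.018) and without no CHX replicate 1, CHX replicate 1 or CHX replicate 3, over a range of -0.32 to 0.14 with 1 sample left out.

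Samples with the same replicate number did not visibly deviate together (correlations -0.0471, -0.0329 and -0.0109). At these depths counting error can hide a shared culture or batch, so the correlations do not settle whether the numbers pair samples. With a replicate block 1225 genes and 4 members, all lower, passed. At these depths the SE of a tested member's log2 fold change was 0.22 to 0.56.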

Other observations

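The mitochondrial ribosome has a further small subunit protein under another symbol, dap-3, which was not among the members and was looked up after its neighbour was seen. It lies 105 bases upstream of mrps-22 on chromosome II. Its log2 fold change was -0.81 (SE 0.31, adjusted p 0.0554), from 131 to 74.4 CPM. For mrps-22 the values were 102, 132 and 106 CPM without CHX and 125, 69.98 and 103 with it, and the groups overlap (log2 fold change -0.19, SE 0.30, adjusted p 0.687).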
